A study of Caenorhabditis elegans with 2 samples.

Results

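In Caenorhabditis elegans, the SL2 spliced-leader RNA genes sls-2.1 and sls-2.2 on chromosome II, sls-2.4, and sls-2.8 on chromosome III each lay under a peak of the transcription factor FKH-2. They were chosen by that peak: each is the sls- gene nearest to a peak that the authors retained by irreproducible discovery rate (IDR), a threshold on how well peak ranks repeat between replicates, with the peak point within 500 bp of the gene. They are 4 of 19 annotated sls-2 genes and of 31 genes named sls-, the other 12 being sls-1 genes, among 46890 annotated genes on the nuclear chromosomes. Because the peaks selected the genes, the peak values below are a description, with no test. The data are chromatin immunoprecipitation and sequencing (ChIP-seq) peak lists from whole L3 larvae, the third larval stage, of mixed sex. All animals were of strain OP185, genotype unc-119(ed3) III; wgIs185, where wgIs185 is an integrated transgene for fkh-2 fused to eGFP, a green fluorescent tag, present besides the endogenous gene. The labels name 2 biological replicates of this single group and give the antibody target as fkh-2. The number of animals and the tissues in which the transgene is active are not stated in the labels, and no control library was analysed here.

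In C. elegans many genes lie in operons, clusters read from one promoter into one long transcript. Trans-splicing cuts that transcript into single mRNAs by joining a short leader to each, and SL2 is the leader used for the downstream genes of operons, while SL1 is used mainly for first genes and genes outside operons. The leader is the 5′ end of a small capped SL RNA that carries Sm proteins, as spliceosomal small nuclear RNAs (snRNAs) do. SL RNA genes are read by RNA polymerase II from short snRNA-type promoters just upstream of the RNA, where the SNAPc complex binds. FKH-2 belongs to the forkhead family, whose winged-helix domain binds AT-rich sites around a core such as RTAAACA (R is A or G).

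The RNA genes are shown because they separate the members into a near-identical group and a gene less like that group. The sequences are from the RefSeq genome of build WBcel235 (ce11), 5′ to 3′ on the strand of the gene, and capitals mark the leader, the bases up to the splice donor. Also shown is sls-2.3, which has the leader of sls-2.1 but no IDR peak of its own.
sls-2.1: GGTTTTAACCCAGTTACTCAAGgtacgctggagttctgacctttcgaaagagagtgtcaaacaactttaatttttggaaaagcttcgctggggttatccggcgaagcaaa
sls-2.2: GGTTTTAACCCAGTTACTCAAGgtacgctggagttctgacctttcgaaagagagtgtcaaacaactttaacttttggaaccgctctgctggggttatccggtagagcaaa
sls-2.3: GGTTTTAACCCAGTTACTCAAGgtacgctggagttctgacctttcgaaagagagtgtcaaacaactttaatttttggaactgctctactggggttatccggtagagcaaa
sls-2.8: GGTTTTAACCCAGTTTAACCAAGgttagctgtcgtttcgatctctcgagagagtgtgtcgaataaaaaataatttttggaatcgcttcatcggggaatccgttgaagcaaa
The 19 genes encoded 12 different leaders of 21 to 23 bases. The most common leader belonged to 4 genes, sls-2.1 to sls-2.4, and these 4 copies were the only ones in the genome on either strand. Of its 4 genes, 3 are members. The fourth member, sls-2.8, had a leader of 23 bases that no other sls-2 gene shared. Counting from base 1 of the RNA gene, sls-2.1 and sls-2.2 differed at 8 of 110 positions, T71C, A80C, A81C, T85C, C86T, C102T, G103A and A104G (base in sls-2.1 first), all beyond the leader. Between sls-2.2 and sls-2.3 there were 3 differences, C71T, C81T and G87A (base in sls-2.2 first). The run TTTTGG, which lies in the Sm-binding stretch of SL RNAs, was present in 18 of the 19 genes, all 4 members included, and absent from sls-2.18.

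The 100 bases upstream of the same genes are shown because the snRNA-type promoter lies there, with the last base next to the RNA gene. In the first 3, capitals mark the longest run common to the 4 genes of the most common leader.
sls-2.1: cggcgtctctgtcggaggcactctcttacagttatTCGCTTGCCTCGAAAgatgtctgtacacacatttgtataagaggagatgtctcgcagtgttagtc
sls-2.2: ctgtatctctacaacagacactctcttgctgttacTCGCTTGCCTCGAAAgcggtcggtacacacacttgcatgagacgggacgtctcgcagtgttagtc
sls-2.3: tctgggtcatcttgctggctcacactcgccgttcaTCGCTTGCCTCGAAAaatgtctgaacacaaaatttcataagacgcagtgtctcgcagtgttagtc
sls-2.8: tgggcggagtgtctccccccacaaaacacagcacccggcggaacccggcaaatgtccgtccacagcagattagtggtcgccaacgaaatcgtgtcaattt
The run of 15 bases sat at the same place in each of the 4 genes, from 65 to 51 bases upstream of the RNA. It occurred 4 times in the genome, so in 4 of 46890 upstream windows (0.00853%), in none of the 12 sls-1 genes and in none of the 99 other snRNA genes. These 4 genes had 8 words of 8 bases in common in this window. The 4 members, with sls-2.8 in place of sls-2.3, had no word of 8 bases in common. Their longest common runs had 5 bases. One, ACACA, was present in 9.41% of all upstream windows, another, CGAAA, in 14.2%, and the last, GTCTC, in 6.18%. The run of 15 bases common to the group was thus also present at sls-2.3 and absent from sls-2.8. Only exact runs were searched. Similar letters with mismatches lay at the same place in all 4 windows shown, as gtctgtacaca in sls-2.1 and gtccgtccaca in sls-2.8.

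The 4 genes of the most common leader were 90.9% to 97.3% identical to one another over the RNA gene (median of 6 pairs 94.1%), and 66.99% to 79.0% over the 100 bases upstream. The gene sls-2.8 was 71.6% to 74.1% identical to those 4 over the RNA gene and 49.2% to 52.6% upstream. To the 14 other sls-2 genes outside that group it was 68.4% to 83.2% identical over the RNA gene (median 79.65%). All 171 pairs of sls-2 genes were 64.3% to 99.1% identical (median 75.7%). The gene most like sls-2.8 was sls-2.7, at 83.2%, which had only weak peaks. The most alike pair, sls-2.10 and sls-2.11, had no peak in any list.

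**Figure D1:**
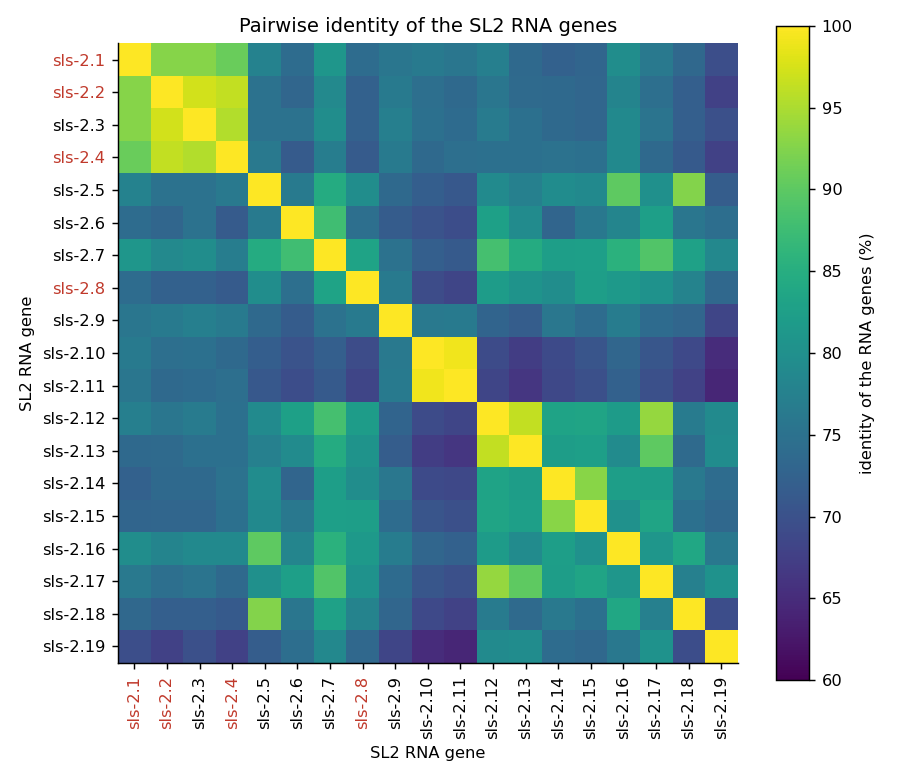
Identity (colour, %) of each pair of the 19 SL2 RNA genes after global alignment; names in red are the 4 genes with their own IDR peak. A block of sls-2.1 to sls-2.4 at 90.9% or more stands at the upper left, and sls-2.8 lies outside it.

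The peak lists give each peak a score, the signal value of the authors' caller on a scale not stated in the sources used here, so scores and ranks (1 is the highest score) were read within a list only. The IDR set held 203 peaks with scores from 22.24 to 85.4 and a median of 27.4. These were the 203 highest scores of the 30000 peaks of the pooled list, and the next pooled score was 22.15. A peak in the set need not have ranked alike in both replicates, as the ranks below show. Replicate 1 had 30000 listed peaks, each 290 bp wide (median score 4.22), and replicate 2 had 24744, each 250 bp wide (median 3.31). An IDR point lay within 500 bp of 0.58% of all annotated genes, 0.801% of protein-coding genes and 3.03% of the 99 snRNA genes not named sls-. The 4 members have such a point because it chose them. The lists carry no counts of reads, which leaves the depth unknown.

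At sls-2.2 (WBGene00004834, chromosome II, 5543598 to 5543707, plus strand) the IDR peak, at 5543560 to 5543849, scored 47.8 and ranked 10. Its peak scored 40.5 in replicate 1 (rank 4) and 10.9 in replicate 2 (rank 167). Both replicates therefore placed it among their 203 strongest peaks, but far apart in order. The point fell 47 bp from the 5′ end of the RNA gene in replicate 1, 110 bp in replicate 2 and 107 bp in the pooled list, so within the gene or 1 bp past its 3′ end.

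At sls-2.1 (WBGene00004833, chromosome II, 5844865 to 5844974, plus strand) the IDR peak, at 5844703 to 5844992, scored 37.7 and ranked 36. Its strongest peak scored 26.4 in replicate 1 (rank 34) and 12.3 in replicate 2 (rank 102). The replicates placed it differently. In replicate 1 the peak covered the whole gene, with the point 63 bp inside. In replicate 2 there were 2 peaks that flanked the gene without touching it, with the stronger ending 36 bp upstream of it and its point 160 bp upstream. The weaker one, on the 3′ side, scored 4.76 and ranked 5407. The pooled point lay 17 bp upstream of the RNA, and a second pooled peak on the 3′ side scored 6.03 (rank 15988).

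At sls-2.4 (WBGene00004836, chromosome I, 4172206 to 4172315, plus strand) the IDR peak, at 4172106 to 4172395, scored 29.3 and ranked 78. Its peak scored 24.2 in replicate 1 (rank 42) and 12.01 in replicate 2 (rank 110). The point lay 45 bp inside the gene in replicate 1 and in the pooled list, and 37 bp upstream of the 5′ end in replicate 2, where the peak covered 80.0% of the gene. At sls-2.8 (WBGene00004840, chromosome III, 12250465 to 12250575, plus strand) the IDR peak, at 12250311 to 12250600, scored 22.3 and ranked 200, so it was 3 ranks from the end of the 203. Its peak scored 14.5 in replicate 1 (rank 255) and 7.50 in replicate 2 (rank 955). It was in the 203 strongest peaks of neither replicate, unlike the other 3 members, which were in both. The point of sls-2.8 lay 7 bp upstream of the RNA in replicate 1, 34 bp inside it in replicate 2 and 9 bp upstream in the pooled list.

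Among the members the order of scores was sls-2.2, sls-2.1, sls-2.4, sls-2.8 in replicate 1 and in the pooled list, and sls-2.1, sls-2.4, sls-2.2, sls-2.8 in replicate 2. The place of sls-2.8 as the lowest of the 4 was common to both replicates, and the order of the other 3 was not. Each of the 4 IDR peaks covered its RNA gene completely. The deposited −log10 (q-value) was 3.365 for all 4 IDR peaks, 3.213 for all their strongest peaks in replicate 1 and 3.586 for those in replicate 2, so it did not separate them. The SD between the replicates' points was 157.7 bp at sls-2.1, 44.6 bp at sls-2.2, 57.98 bp at sls-2.4 and 28.99 bp at sls-2.8 (n = 2 replicates each). The RNA genes are 110 or 111 bp long. At sls-2.1, sls-2.4 and sls-2.8 the points of the strongest peaks fell on both sides of the 5′ end across the lists, and at sls-2.2 none fell upstream.

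**Figure D2:**
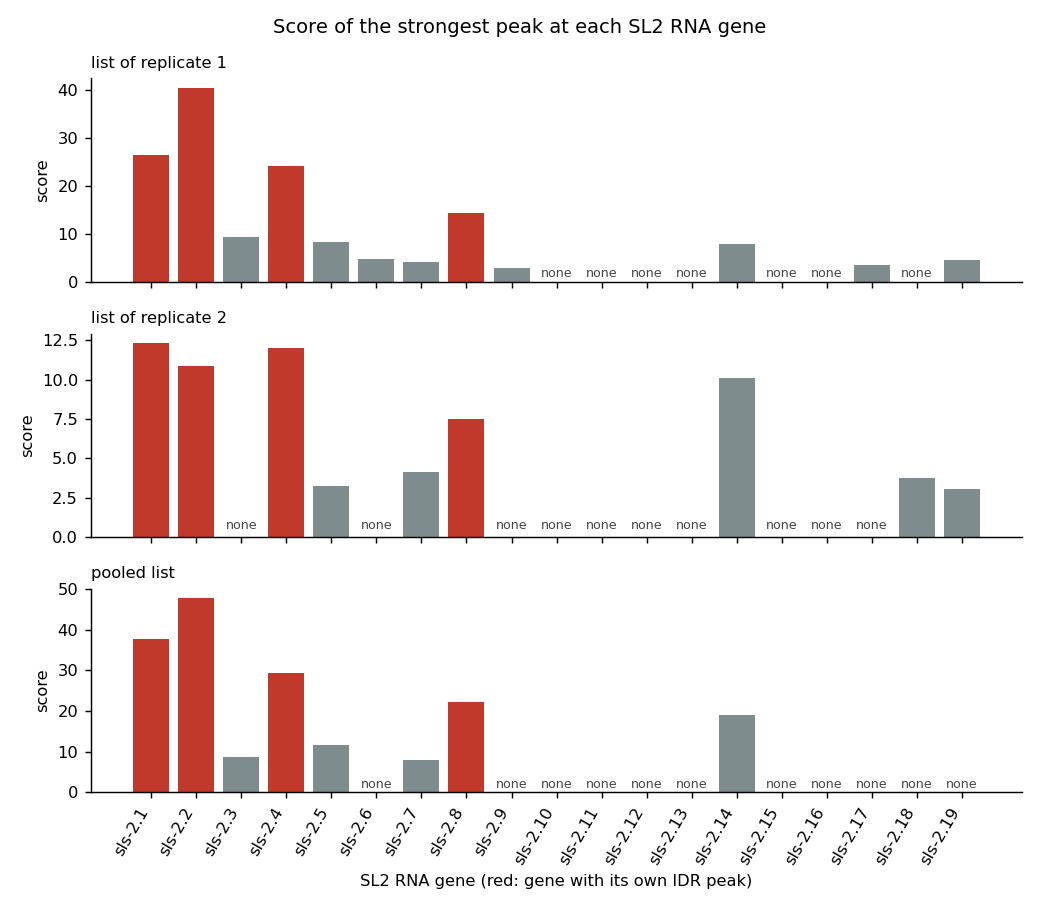
Score of the strongest peak that lies within 500 bp of each SL2 RNA gene and is nearest to that gene, in the 2 replicate lists and the pooled list, with 1 bar per gene, red for the 4 genes chosen by their IDR peak, and the word none where a list has no such peak. Scores are on separate scales and are read within a panel; in replicate 2 the bar of sls-2.14 (10.1) stands above that of sls-2.8 (7.50).

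**Figure D3:**
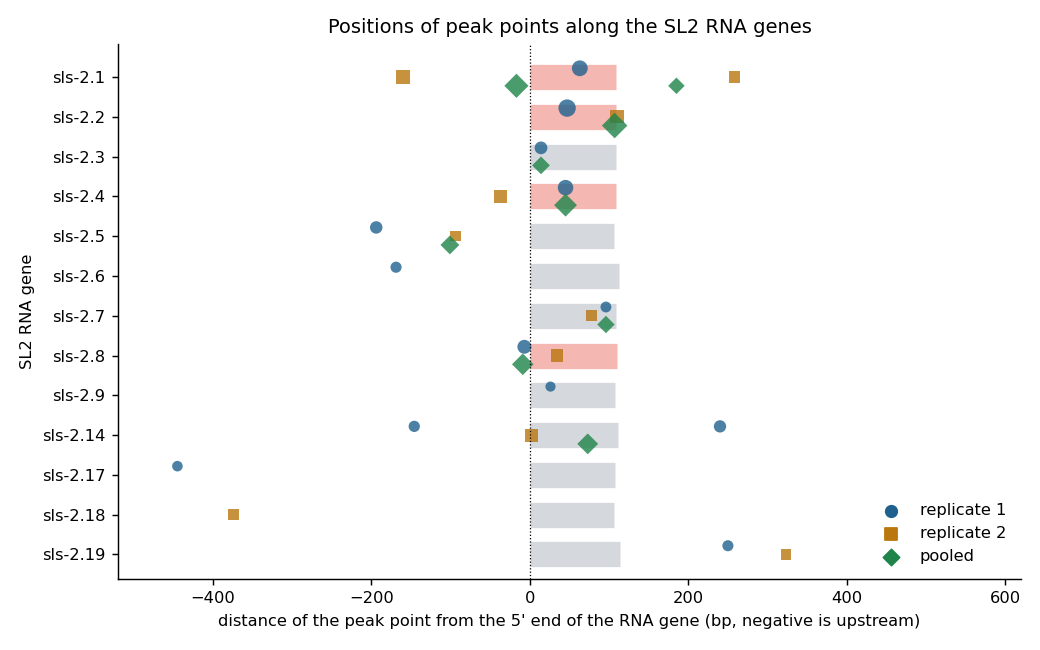
Distance in bp of each peak point from the 5′ end of its nearest SL2 RNA gene, negative upstream, with bars for the RNA gene (red for the 4 chosen by their IDR peak), 1 symbol per list and symbol area growing with score. The points of the strongest pooled peaks of the 4 genes lie between -17 and 107 bp, a second and weaker pooled point at sls-2.1 lies at 185 bp, and the replicates' strongest points at sls-2.1 lie at 63 and -160 bp.

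In replicate 1 and in the pooled list, the own peaks of the other sls-2 genes scored below those of the 4 members or were absent, and in replicate 2 sls-2.14 scored above sls-2.8. A point of any peak lay within 500 bp of 13 of the 19 sls-2 genes in replicate 1, 12 in replicate 2 and 8 in the pooled list, where the shares over all annotated genes were 44.6%, 40.6% and 44.1%. As shares of the sls-2 genes these were 68.4% in replicate 1 and 63.2% in replicate 2, above the shares of all genes. In the pooled list the share was 42.1%, near that of all genes. The lists hold weak regions, and the counts include the 4 members, which were chosen by their peaks. They also include genes reached only by a peak nearest to another sls-2 gene. With own peaks only, the counts were 12 of 19 in replicate 1, 9 in replicate 2 and 8 in the pooled list. The difference from all genes was not tested. For the 203 strongest peaks, the counts were 3 of 19 in replicate 1 and 4 of 19 in replicate 2, where all annotated genes gave 0.61% and 0.569%. Replicate 1 gave sls-2.1, sls-2.2 and sls-2.4, and replicate 2 gave the same 3 and sls-2.3, through the peak nearest to sls-2.2. All these hits are through peaks of members, and the IDR set that chose the members came from the same replicates. The counts therefore restate that choice and are no result about sls-2 genes as a class. In the IDR set 5 of 19 genes had a point within 500 bp, the 4 members and sls-2.3.

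The gene sls-2.3 (WBGene00004835, chromosome II, 5544164 to 5544273, minus strand) lay 456 bp from sls-2.2 in the opposite orientation, with the 3′ ends facing. The IDR point it had within 500 bp was that of sls-2.2, 459 bp away, and that peak ended 315 bp short of sls-2.3. Its own peak scored 9.43 in replicate 1 (rank 1349) and 8.68 in the pooled list (rank 5858), each with the point 14 bp inside the RNA, and replicate 2 had no peak nearest to it. Both genes carry the same leader and the same upstream run, and differ at 3 bases of the RNA gene, while their own pooled peaks ranked 10 and 5858.

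The gene just outside the IDR set was sls-2.14 (WBGene00004846, chromosome III, 11090412 to 11090523, minus strand), in an intron of W09D6.5. Its pooled peak scored 19.0 and ranked 338, with the point 73 bp inside the RNA. Its strongest peak scored 7.98 in replicate 1 (rank 2616, point 240 bp from the 5′ end) and 10.1 in replicate 2 (rank 235, point 2 bp from it). In replicate 2 it ranked above sls-2.8, and in replicate 1 below it, so the replicates ordered sls-2.8, inside the threshold, and sls-2.14, outside it, in opposite ways. The gene sls-2.15, 486 bp from sls-2.14, had no peak of its own.

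Of the remaining genes, sls-2.5 had a pooled peak of 11.7 (rank 1947), with 8.36 in replicate 1 (rank 2164) and 3.21 in replicate 2 (rank 13058). At sls-2.7 the pooled peak scored 7.96 (rank 7680), with 4.07 in replicate 1 (rank 16061) and 4.10 in replicate 2 (rank 7957). Both lay in the weaker part of the lists in at least 1 replicate. At sls-2.6, sls-2.9, sls-2.17, sls-2.18, sls-2.16 and sls-2.19 peaks were in replicate lists only, at ranks from 9874 to 27953, and sls-2.16 had only the peak nearest to sls-2.18. No list had a peak within 500 bp of sls-2.10, sls-2.11, sls-2.12 or sls-2.13. The genes of 1 leader differed: sls-2.5, sls-2.6 and sls-2.7 have identical leaders, and a pooled peak was present at sls-2.5 and sls-2.7 and not at sls-2.6.

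**Figure D4:**
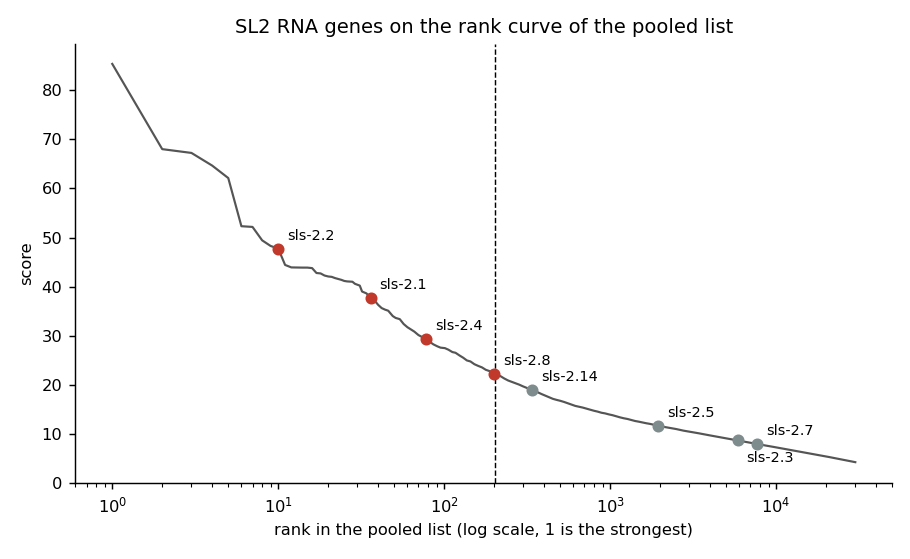
Score against rank (log scale) of the 30000 pooled peaks, with the 8 SL2 RNA genes that have a pooled peak of their own marked, red for the 4 chosen by their IDR peak; the dashed line is the end of the IDR set at rank 203. The red points run from rank 10 to rank 200, and sls-2.14 follows at rank 338.

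All 4 members were intergenic with respect to protein-coding genes, whereas of the other 15 sls-2 genes 8 were intergenic and 7 lay in introns of protein-coding genes. Those introns include introns of the glutamate receptor gene glr-2, which holds sls-2.5, sls-2.16 and sls-2.18. An antisense noncoding RNA was annotated over 3 of the 4 members, all but sls-2.1, and over 2 of the other 15. Gene and antisense partner cannot be told apart in ChIP-seq peaks.

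At 3 of the 4 members the nearest protein-coding start lay much farther from the IDR point than the RNA gene did. The rule that chose the members required a point within 500 bp of the RNA gene and set no such limit for coding starts. For sls-2.1 the neighbours were nep-25, of the neprilysin-like peptidase family, and ZK1248.17. The transcription start site (TSS) of ZK1248.17 was the nearest, 693 bp from the IDR point, which lay downstream of it. The point also lay 929 bp upstream of the TSS of H41C03.3, the gene beyond ZK1248.17. For sls-2.2 the neighbours were C17C3.24 and the insulin-like peptide gene ins-13. The point lay 1920 bp upstream of the TSS of C17C3.24 and 1159 bp downstream of that of ins-13. For sls-2.4 the neighbours were egg-5, which acts in the oocyte-to-embryo transition, and R12E2.11. The point lay 662 bp upstream of the TSS of egg-5 and 1373 bp downstream of that of R12E2.11. The IDR points of these 3 were 17 bp or less from their RNA gene, or inside it. At sls-2.8 the coding starts were much closer. The point lay 204 bp upstream of the TSS of Y75B8A.23 and 292 bp upstream of that of tim-1, a homologue of the clock and replication gene timeless. This peak thus lay between these coding starts, over sls-2.8 and the antisense noncoding RNA annotated there. Which of these genes it belongs to was not tested.

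In each list, the other peaks near each member scored below the member's own strongest peak. With the point more than 500 bp and up to 10 kb from the gene, the pooled list had 9 other peaks around sls-2.1, 4 around sls-2.2, 6 around sls-2.4 and 4 around sls-2.8. The strongest of these scored 14.4 at sls-2.1 (rank 868), 15.7 at sls-2.2 (rank 628), 11.7 at sls-2.4 (rank 1915) and 6.27 at sls-2.8 (rank 14595). In replicate 1 the strongest other peak scored 7.79 at sls-2.1, 13.5 at sls-2.2, 6.66 at sls-2.4 and 5.88 at sls-2.8. In replicate 2 it scored 6.40 at sls-2.1, 3.04 at sls-2.2, 7.27 at sls-2.4 and 2.38 at sls-2.8. In replicate 2 the own peaks of sls-2.1 and sls-2.4 scored 12.3 and 12.01.

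Motifs were searched on both strands for GAGAGA and for a wider and a stricter forkhead core. The wider core is written RYAAAYA, where R is A or G and Y is C or T. The stricter is RTAAACA, and each of its matches also matches the wider core. Within 50 bp of the IDR point GAGAGA was present at 0 of the 4 members, against 38.4% of the 203 IDR peaks and 8.25% of the pooled peaks. The wider forkhead core was present at 1 member, sls-2.2, against 29.6% and 16.9%, and its letters, ACAAACA, lay outside the RNA gene, 31 bp from the point. The stricter core was present at 0 of the 4, against 15.3% and 4.15%. Over the whole peak, the wider core was also in that of sls-2.1, as GCAAACA 125 bp from the point, and GAGAGA was in that of sls-2.8, on both strands within the RNA gene. With 4 peaks these shares cannot be compared with those of the set. The peaks held 47.6% G and C at sls-2.1, 38.6% at sls-2.2, 43.4% at sls-2.4 and 45.2% at sls-2.8, beside medians of 43.4% for the IDR set and 37.2% for the pooled list.

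The 12 sls-1 genes, which encode the other leader, had no peak within 500 bp in any list. They lay in 1 cluster on chromosome V, 17118154 to 17132107, which held no peak of the replicate, pooled or IDR lists. One of the 10 full-length genes, of 98 bp, is shown for the comparison, with its leader in capitals.
sls-1.10: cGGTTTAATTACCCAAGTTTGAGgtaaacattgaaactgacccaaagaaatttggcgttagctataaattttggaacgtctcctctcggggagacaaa
In this RNA gene a stricter forkhead core, read GTAAACA, follows directly after the leader. That core was present in 10 of the 12 sls-1 RNA genes and in 0 of the 19 sls-2 RNA genes. Whether the lack of peaks there reflects a lack of binding was not tested. Of the 32-base words in each sls-1 gene and 100 bp to either side, 0 to 11.2% occurred only once in the genome (median 0). For sls-2 genes the same share was 43.4% to 100% (median 79.9%). Of those with no peak in any list, it was 71.6% at sls-2.10 and at sls-2.11, 43.4% at sls-2.12 and 86.0% at sls-2.13. In the members' IDR peaks it was 74.5% at sls-2.1, 78.4% at sls-2.2, 91.5% at sls-2.4 and 100% at sls-2.8, and 91.1% of all IDR peaks were unique throughout. How reads with several matches were placed is not given in the sources used here. What it contributes to the scores at the near-identical members was not tested. Nor was what it contributes to the lack of peaks at the sls-1 genes or at sls-2.10 to sls-2.13.

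Among the 99 other snRNA genes 3 had an IDR point within 500 bp. F38E11.10 (WBGene00014366) had an IDR peak of 29.9 (rank 71; rank 200 in replicate 1 and 116 in replicate 2) with the point 51 bp upstream of the RNA. The peak at sup-6 (WBGene00006315) scored 27.2 (rank 104; 156 and 8363 in the replicates) and that at W05B2.8 (WBGene00014543) scored 23.3 (rank 174; 323 and 3701). Of these 3, F38E11.10 was in the 203 strongest of both replicates, as sls-2.1, sls-2.2 and sls-2.4 were.

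Genes for the proteins that make or use SL RNAs were listed as SL ribonucleoprotein subunits, Sm proteins, SNAPc subunits, the TATA-binding protein, the cap hypermethylase and factors of splice-site choice and cleavage. Of 26 listed, 25 were found in the annotation, and none had an IDR peak whose nearest TSS within 2000 bp was theirs, beside 0.706% of all protein-coding genes. A list of 25 is too short for this lack to be told apart from that share. Pooled peaks, which include weak regions, had a point within 2000 bp of a TSS of 20 of the 25, and of 75.0% of all protein-coding genes. The highest of them, at the Sm protein gene snr-6, ranked 1818 with a score of 11.9.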

How the data were processed

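ChIP-seq peak lists of FKH-2 in L3 larvae came from 2 biological replicates of 1 group, with 4 lists on ce11: 1 per replicate, 1 pooled and 1 IDR set. Per the deposited text files, the authors made the replicate and pooled lists from alignments and a control, and took the IDR set from those lists. The aligner, the caller, the IDR threshold and the read depth are not given in the sources used here. The score that the authors deposited for each peak is their caller's signal value, of unstated scale. The deposited −log10 (q-value) stands beside it. Lists on ce10 were not used here.

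From these, peaks were ranked by score within a list, and a peak belonged to a gene where its deposited point lay within 500 bp. The point was the centre of the peak, except in 1 peak of the pooled list, which is also in the IDR set. Gene models were those of Ensembl release 115 (build WBcel235), and gene names came from RefSeq by WormBase ID, since Ensembl gives the sls-1 genes 2 symbols and 30 genes an sls- symbol where RefSeq gives 31. The coordinates of all 31 were the same in both. Identity is from global alignment (match 1, mismatch -1, gap opening -2, extension -0.5). Tools were Python 3.11.15, pandas 2.3.3, numpy 2.4.6, pysam 0.24.0, Biopython 1.88 and matplotlib 3.10.9. The step that assigns peaks to genes was tested on simulated peaks.

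The members and lists were chosen with earlier results of these data known, so no test was made. Genes named are the members, other sls- genes with a peak in any list and the protein-coding neighbours of members. Also named are other snRNA genes with an IDR peak and listed SL machinery genes with an IDR peak. H41C03.3, sls- genes without a peak, snr-6 and the genes that hold other sls-2 genes were named after their values were seen. Alternatives were distances of 200 and 1000 bp, overlap of peak and gene, the 203 strongest peaks of either replicate, IDR peaks above the median score, the 500 strongest pooled peaks, and wider motif windows.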

Additional observations from a re-analysis of the deposited data

How the results depend on the processing

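All 4 members kept an IDR peak at 200 bp, at 1000 bp, where the peak had to overlap the gene, and among the 500 strongest pooled peaks. With 1 replicate left out, so that the 203 strongest peaks of the other stood for the IDR set, 3 members had a peak in either case, and 3 did among IDR peaks above the median score; sls-2.8 was the one lost each time. The count of other sls- genes with an IDR peak, 1 (sls-2.3), was 0 at 200 bp, 0 where overlap was required and 2 among the 500 strongest pooled peaks, where sls-2.14 joined. With 1 replicate left out it ranged from 0, without replicate 2, to 1, without replicate 1. The count for the 4 genes of the most common leader was added after seeing the data and follows from these. No listed SL machinery gene had an IDR peak with the TSS within 500 bp, or when every gene with a TSS within 2000 bp was counted. The share of other snRNA genes with an IDR peak, 3.03%, ranged from 1.01% without replicate 1 to 4.04% among the 500 strongest pooled peaks. Among all annotated genes the share with an IDR peak moved as well, from 0.58% to 0.377% at 200 bp, 0.324% with overlap required, 0.292% above the median score and 1.37% for the 500 strongest pooled peaks. The strongest peak's point differed between replicates by 223 bp at sls-2.1, 63 bp at sls-2.2, 82 bp at sls-2.4 and 41 bp at sls-2.8. The lists hold no read numbers, so the depth that limits the weak peaks is unknown.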
